A study of Mus musculus with 13 samples.

Results

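The Hox cluster genes are homeobox genes named by a cluster letter, A to D, and a paralogue number, 1 to 13. All gene symbols made of Hox, a cluster letter and a number were taken from the count table, which left out antisense and noncoding transcripts of the clusters. This gave 36 members of 38279 symbols: 10 in cluster A, 10 in cluster B, 8 in cluster C and 8 in cluster D. GENCODE M21 lists 39 such genes in mouse, and 3 were not analysed here. PolyA RNA of whole tissue was sequenced in 2 groups: mammary tumours (n = 6), taken from mice that carried Cre, and mammary glands (n = 4), taken whole from wild-type (WT) mice without Cre. Fbxw7 encodes an F-box protein that marks other proteins for breakdown. Mating at 12 weeks of age was used to induce its excision in the Cre-positive mice, and the Cre-negative mice were mated as well. The tumours came from mice of 25, 32, 39, 19, 53 and 25 weeks (tumours 1 to 6), and the glands from mice of 20, 20, 20 and 40 weeks (glands 1 to 4). The labels used here name neither the promoter that drove Cre nor the excised exons, the strain or the gland pair that was sampled. Whether every library had an animal of its own is not spelled out, and p-values then cover the spread among these libraries, which may in part be technical. Every tumour came from a mouse with Cre and every gland from one without, so tissue state and Cre status cannot be told apart, whereas the ages of the 2 groups overlap. Glands 1 to 3 bear another form of identifier than gland 4 and the tumours.

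Hox proteins are transcription factors that bind DNA through a homeodomain, often together with Pbx and Meis proteins. The genes lie in 4 clusters, on chromosomes 6 (A), 11 (B), 15 (C) and 2 (D) in mouse, and their order along the chromosome follows the order in which they are switched on from head to tail in the embryo. Genes of the same number in different clusters are paralogues that descend from 1 ancestral gene, and Polycomb and trithorax complexes keep the clusters silent or active in each cell lineage. Adult tissues keep a pattern of Hox expression that reflects the body level they come from. Mouse mammary glands develop from the neck to the groin, and mice that lack the group 9 paralogues Hoxa9, Hoxb9 and Hoxd9 are known for poor mammary growth in pregnancy. Anterior genes are here those of groups 1 to 3, central genes those of groups 4 to 8 and posterior genes those of groups 9 to 13.

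Sequences upstream of the start sites are shown for the neighbours Hoxa5, Hoxa7 and Hoxa9, which were lower together in the tumours, and for Hoxb1, which had the highest fold change of the family. RefSeq promoters (build GRCm38.p6) were matched by symbol for 20 of the 36 members, with 22 promoters, and cut to the 250 bases before the annotated start. Each is printed 5′ to 3′ on the gene's strand, with motif matches on either strand in capitals.
Hoxa5, chr6:52204588-52204837, minus strand: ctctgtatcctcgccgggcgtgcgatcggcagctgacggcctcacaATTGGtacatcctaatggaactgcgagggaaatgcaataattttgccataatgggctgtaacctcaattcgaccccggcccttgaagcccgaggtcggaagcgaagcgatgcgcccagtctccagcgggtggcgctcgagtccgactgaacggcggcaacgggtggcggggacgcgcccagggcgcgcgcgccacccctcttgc
Hoxa7, chr6:52218574-52218823, minus strand: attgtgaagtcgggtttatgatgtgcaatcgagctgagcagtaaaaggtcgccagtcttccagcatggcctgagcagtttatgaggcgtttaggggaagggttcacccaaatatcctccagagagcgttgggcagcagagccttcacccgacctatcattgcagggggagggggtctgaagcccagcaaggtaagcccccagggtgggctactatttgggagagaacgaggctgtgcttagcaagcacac
Hoxa9, chr6:52227371-52227620, minus strand: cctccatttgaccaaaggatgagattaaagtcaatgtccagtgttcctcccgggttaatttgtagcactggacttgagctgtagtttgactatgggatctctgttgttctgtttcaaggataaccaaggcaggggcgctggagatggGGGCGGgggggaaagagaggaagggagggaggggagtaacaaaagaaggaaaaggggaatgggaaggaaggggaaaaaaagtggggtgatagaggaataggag
Hoxb1, chr11:96365508-96365757, plus strand: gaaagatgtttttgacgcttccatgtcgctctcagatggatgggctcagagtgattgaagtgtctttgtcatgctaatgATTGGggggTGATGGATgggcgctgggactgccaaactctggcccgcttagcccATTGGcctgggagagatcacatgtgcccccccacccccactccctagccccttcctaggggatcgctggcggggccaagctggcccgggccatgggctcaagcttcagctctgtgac

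The motifs searched on both strands were the TATA box TATAAA, the CCAAT box CCAAT, the E-box CACGTG, the GC box GGGCGG, the HOX-PBX composite TGATNNAT and the posterior HOX motif TTTATNG. Matches of TTTATNG that read TTTATAG also hold TATAAA on the other strand. In the printed windows, Hoxa5 had 1 CCAAT box, Hoxa9 had 1 GC box, Hoxa7 had no match, and Hoxb1 had 2 CCAAT boxes and 1 HOX-PBX composite. Hoxb1 protein is known in mouse to bind upstream of its own gene together with Pbx. The composite occurred in 4 of the 22 Hox promoters (those of Hoxa2, Hoxb1 and Hoxb8 and 1 promoter of Hoxd11), and in 7.68% of all 32851 RefSeq promoters of this length. The shares of all promoters with the other motifs were 12.4% for the TATA box, 33.8% for the CCAAT box, 6.02% for the E-box, 32.7% for the GC box and 9.81% for the posterior motif. The windows differed in CpG dinucleotides, with 28 in Hoxa5, 7 in Hoxa7, 3 in Hoxa9 and 7 in Hoxb1, against a median of 6 over all promoters. A match is a run of letters and not a measured site, and binding and methylation were not measured.

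Depth and library features bear on how firmly these low-level genes can be read. Total counts per library were 34865913 to 48353114 in all libraries but gland 3 (13723065), gland 1 (32548237) and gland 4 (27141874), and Hox genes took 148 to 4571 counts in a tumour and 3317 to 9806 in a gland. Salivary gland markers made up 53.7% of counts in tumour 1 and 19.9% in tumour 6, against at most 0.0447% in the other tumours and 0.0529% in the glands. Skeletal muscle markers made up 8.44% of counts in gland 4, and at most 0.102% in the tumours and 1.53% in the other glands. Luminal epithelial markers, summed, were present in every library (2280 to 4860 CPM in tumours and 524 to 906 CPM in glands), as were adipocyte markers (33.2 to 1470 CPM in tumours and 7980 to 32000 CPM in glands). No gene of these 4 marker lists was at 0 in all 10 libraries. Fbxw7 was at 30.9 ± 10.4 CPM in tumours and 33.5 ± 33.4 CPM in glands (SD, n = 6 and 4; edgeR adjusted p = 0.888), and since counts from exons outside an excised part stay in a gene total, this does not check the genotype labels. Levels are counts scaled by TMM to 1000000 per library (CPM) unless they are said to be per kilobase.

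Of the tested Hox genes, 9 of 13 central and 2 of 6 posterior ones were called lower in tumours than in glands. None of the family was called higher. Of the 36 members, 25 had enough counts to be tested, and 11 of them (44.0%) fell at a Benjamini-Hochberg adjusted p below 0.05 in edgeR's quasi-likelihood test, two-sided, against 8.19% of all 20101 genes tested. The 11 were Hoxa4, Hoxa5, Hoxa7, Hoxa9, Hoxb6, Hoxb7, Hoxc5, Hoxc6, Hoxc8, Hoxc9 and Hoxd8. None passed in the other direction, against 6.89% of all genes. At an unadjusted p below 0.05, 14 members were lower, against 16.1% of all genes, and 1 (Hoxb1) was higher, against 17.3%. The median log2 fold change, tumour over gland, was -3.16 over the 25 tested members and 0.17 over all genes tested. By TMM-scaled level, all 6 tumours lay below all 4 glands in 12 members, against 7.5% of all genes tested. In no member did all tumours lie above all glands at this scaling, against 6.54%. Adipocyte markers fell in the same libraries (12 of 13 called lower, median log2 fold change -6.10), as did markers of skeletal muscle (8 of 12, -7.36) and endothelium (4 of 9, -1.72). Fewer were called lower among markers of fibroblasts (1 of 10, -1.64), T and NK cells (1 of 10, -3.75) and B cells (0 of 8, -3.09), against 8.19% of all genes. Called higher were 9 of 10 luminal (2.23), 5 of 10 squamous (4.14), 4 of 11 salivary (11.8), 2 of 9 basal (-0.12) and 1 of 9 macrophage markers (-0.083). The part of these cell types in the Hox result was not tested. In whole tissue, fewer cells of a type and less RNA per cell cannot be told apart.

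The count of 11 depended on single libraries. It was 4 without gland 1 (2.95% of all genes), 6 without gland 2 (4.58%), 7 without gland 3 (5.69%), 6 without tumour 2 (5.27%) and 7 without tumour 4 (4.89%). It was 9 without tumours 1 and 6, the libraries rich in salivary transcripts (11.6% of all genes). Of the 25 tested members, 7 passed the filter on low counts through the glands alone, and 4 of these were called (Hoxa4, Hoxa9, Hoxb6 and Hoxb7). A member that enters only through the glands had to be higher there. Without a filter, 10 of the 36 members fell, against 3.9% of all 38279 genes.

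**Figure D1:**
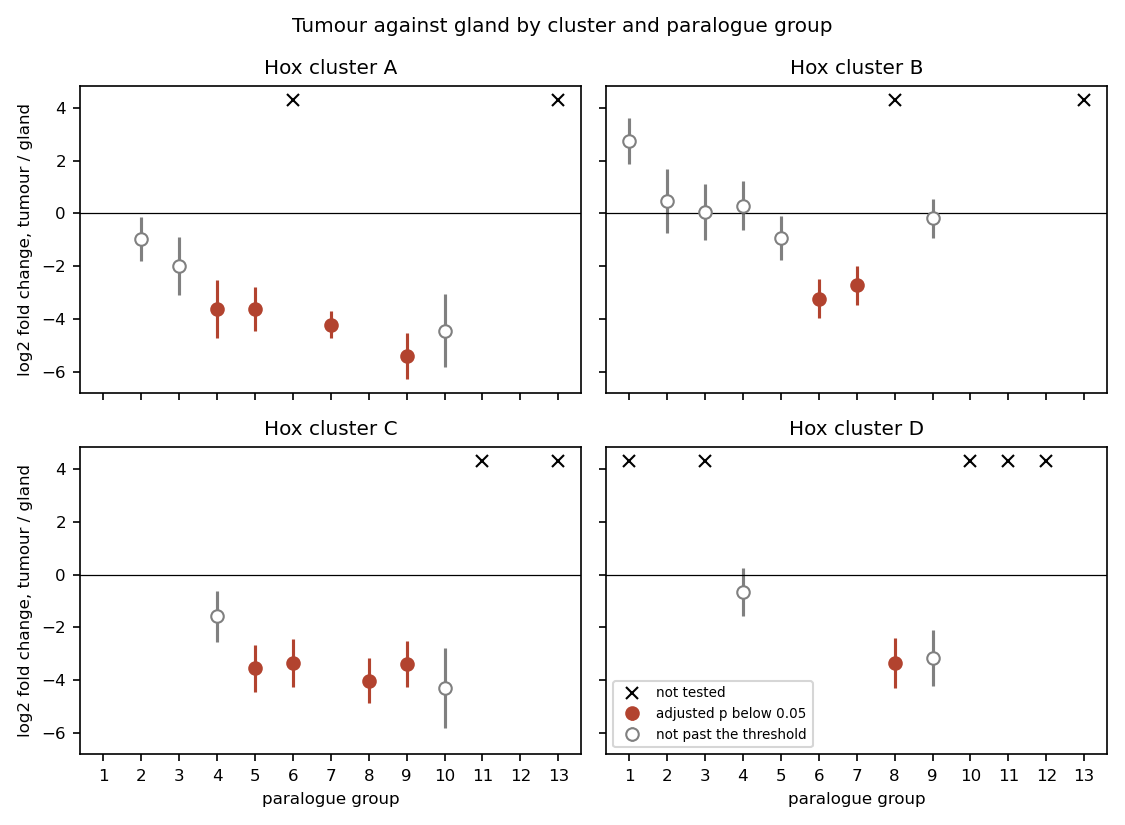
Log2 fold change of tumours over glands (y axis, edgeR, bars are 1 SE) for the tested Hox genes by paralogue group (x axis), with 1 panel per cluster and crosses for members that were not tested. In clusters A, C and D all 16 fold changes shown lie below 0, whereas in cluster B groups 1 to 4 lie between 0.052 and 2.74.

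By position in the cluster, the share of members called lower was 0 of 6 tested anterior genes (median log2 fold change -0.42), 9 of 13 central genes (-3.36) and 2 of 6 posterior genes (-3.84). By cluster it was 4 of 8 in A (median -3.63), 2 of 8 in B (-0.068), 4 of 6 in C (-3.47) and 1 of 3 in D (-3.16). Over all genes tested, 8.19% were called lower. Whether these shares differ from each other was not tested. Every tested member of groups 6, 7 and 8 was called lower (2 of 2 in each), but Hoxa6 of group 6 and Hoxb8 of group 8 were not tested. Of the members called in these groups, Hoxb6 and Hoxb7 had passed the filter on low counts through the glands alone.

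Group 8 held the most abundant Hox transcripts of the glands. Hoxc8, which in mouse is known to mark and help place the thoracic mammary buds, was at 0.335 (lowest), 1.5 (median) and 11.2 (highest) CPM in tumours, against 59.0, 49.3, 74.4 and 33.1 CPM in glands 1 to 4. The groups did not overlap, and tumour 5 was the highest tumour. Hoxc8 averaged 3.32 ± 4.18 CPM in tumours and 54.0 ± 17.3 CPM in glands (SD, n = 6 and 4), and the log2 fold change was -4.02 ± 0.86 (± SE here and below, edgeR adjusted p = 0.0145), or -4.94 without tumour 5. Its paralogue Hoxd8 was at 0.297, 2.59 and 6.47 CPM (lowest, median, highest) in tumours, against 19.3, 9.96, 7.68 and 78.3 CPM in glands 1 to 4. All tumours lay below all glands, and gland 4 stood far above the other glands. The log2 fold change of -3.36 ± 0.94 (adjusted p = 0.0361, edgeR) was -2.21 without gland 4 and did not pass there (adjusted p = 0.108), nor without gland 1 or 2 or tumour 2, 4 or 5. Gland 4 is the gland of 40 weeks and the one with most muscle transcripts, and the part of either in its Hoxd8 level was not tested.

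Groups 6 and 7, which act in the thoracic region of the embryo, were low in every tumour. Hoxa7 was at 0.247, 0.616 and 1.23 CPM (lowest, median, highest) in tumours, against 16.9, 10.6, 11.9 and 12.9 CPM in glands 1 to 4. It had the smallest adjusted p of the family (log2 fold change -4.22 ± 0.51, adjusted p = 0.00176, edgeR) and was called in all 10 fits that left out 1 library. In GENCODE M21, 20.7% of its exon bases lie under Hoxaas3 on the opposite strand. Hoxb7, studied in human breast cancer as an oncogene, was at 0.0151, 0.277 and 0.641 CPM in tumours, against 2.20, 2.67, 2.78 and 1.14 CPM in glands. The 2 groups did not overlap (log2 fold change -2.73 ± 0.74, adjusted p = 0.0323), though its adjusted p was over 0.05 when gland 1, 2 or 3 or tumour 3 was left out. Hoxb6 was at 0, 0.121 and 0.251 CPM in tumours, against 1.66, 1.28, 0.780 and 0.699 CPM in glands. These levels rest on few reads, and no tumour reached a gland (-3.23 ± 0.73, adjusted p = 0.0172). The call of Hoxb6 was lost without gland 1 (adjusted p = 0.0581). Hoxc6, a gene of the thoracic region like Hoxc8, was at 0.0742, 0.490 and 4.71 CPM in tumours, against 17.8, 11.6, 12.4 and 7.38 CPM in glands. Tumour 5 was again the highest tumour. The log2 fold change of -3.36 ± 0.90 (adjusted p = 0.0312) was -4.69 without tumour 5, and it missed the threshold without gland 1, 2 or 3 or tumour 2 or 4.

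In groups 4 and 5, Hoxa4, Hoxa5 and Hoxc5 fell, and none of the members of clusters B and D passed. Hoxa5, whose human counterpart has been studied in breast cancer, was at 0.0989, 0.558 and 1.62 CPM (lowest, median, highest) in tumours, against 12.0, 3.14, 3.01 and 18.1 CPM in glands 1 to 4. No tumour reached a gland (log2 fold change -3.63 ± 0.83, adjusted p = 0.0180, edgeR), and the call was lost only without gland 1 among the fits that left out 1 library (adjusted p = 0.0530). Hoxc5 was at 0.0495, 0.267 and 2.05 CPM in tumours, against 12.4, 4.40, 4.84 and 5.79 CPM in glands. Gland 1 was the highest library and tumour 5 the highest tumour. The log2 fold change was -3.56 ± 0.90 (adjusted p = 0.0256), or -4.65 without tumour 5, and the call was lost without gland 1 or tumour 2. Hoxa4 was at 0, 0.319 and 0.548 CPM in tumours, against 5.71, 1.37, 1.11 and 5.09 CPM in glands. It was at 0 counts in tumours 2 and 3, and its call (-3.62 ± 1.11, adjusted p = 0.0480) held without tumour 1 and was lost in the other 9 fits that left out 1 library. Hoxb4, Hoxb5, Hoxc4 and Hoxd4 did not pass, with log2 fold changes of 0.29, -0.94, -1.58 and -0.68 (adjusted p = 0.843, 0.433, 0.269 and 0.615). Hoxc4 was below all glands in 5 of 6 tumours, and tumour 5, at 5.86 CPM, lay among the glands (2.39 to 6.91 CPM). Without tumour 5 its log2 fold change was -3.17 and it passed (adjusted p = 0.0201).

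Of the posterior genes, Hoxa9 had the largest fall of the family. Hoxa9, a group 9 gene also known for its part in leukaemia, was at 0.0151, 0.0755 and 0.428 CPM (lowest, median, highest) in tumours, against 3.54, 6.59, 7.18 and 9.28 CPM in glands 1 to 4. No tumour reached the lowest gland (log2 fold change -5.41 ± 0.87, adjusted p = 0.00523, edgeR), and the fold change was -6.19 without tumour 5. The call of Hoxa9 held in all 10 fits that left out 1 library. Hoxa9 passed the filter on low counts through the glands alone, however, so it had to be higher there to be tested. Hoxd9 was at 0, 0.577 and 2.26 CPM in tumours, against 3.60, 3.29, 2.78 and 17.9 CPM in glands. Its groups did not overlap either, but it missed the threshold (-3.16 ± 1.06, adjusted p = 0.0658), and it was -2.18 without gland 4. Hoxd9 passed without tumour 1 (-3.79, adjusted p = 0.0404), without tumours 1 and 6, with limma-voom and with total-count scaling. Hoxb9 overlapped between the groups (-0.19 ± 0.73, adjusted p = 0.874). Hoxc9 was at 0.0836, 0.502 and 1.54 CPM in tumours, against 1.74, 9.41, 13.4 and 0.954 CPM in glands. It passed (-3.38 ± 0.87, adjusted p = 0.0278), although tumour 5 lay above gland 4, but its adjusted p was over 0.05 when gland 2 or 3 or tumour 2 or 4 was left out, with -2.75 without gland 3. Hoxa10, which in mouse is needed in the uterus, was at 0, 0.0139 and 1.28 CPM in tumours, against 1.66, 5.17, 5.57 and 11.1 CPM in glands. All tumours lay below all glands and the test missed the threshold (-4.45 ± 1.39, adjusted p = 0.0521, and -6.75 with adjusted p = 0.0121 without tumour 5).

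Hoxc9 and Hoxc10 divided the glands. Hoxc10 was at 0.0151, 0.118 and 1.12 CPM (lowest, median, highest) in tumours, against 0.599, 15, 15.9 and 0 CPM in glands 1 to 4. Glands 2 and 3 were high for both genes, and glands 1 and 4 were at or near tumour levels. The log2 fold change of Hoxc10 was -4.30 ± 1.52 and did not pass (adjusted p = 0.0765, edgeR); it passed without gland 4 (adjusted p = 0.0442) and with DESeq2. Summed T and NK cell markers were at 4.66 to 90.1 CPM in tumours and at 20.4, 611, 484 and 2.67 CPM in glands 1 to 4, and summed B cell markers at 4.56 to 149 CPM in tumours and 12.7, 397, 427 and 2.29 CPM in glands 1 to 4. The same glands were thus high in both, and the part of lymphoid tissue, or of the gland pair sampled, in the Hoxc9 and Hoxc10 levels was not tested.

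**Figure D2:**
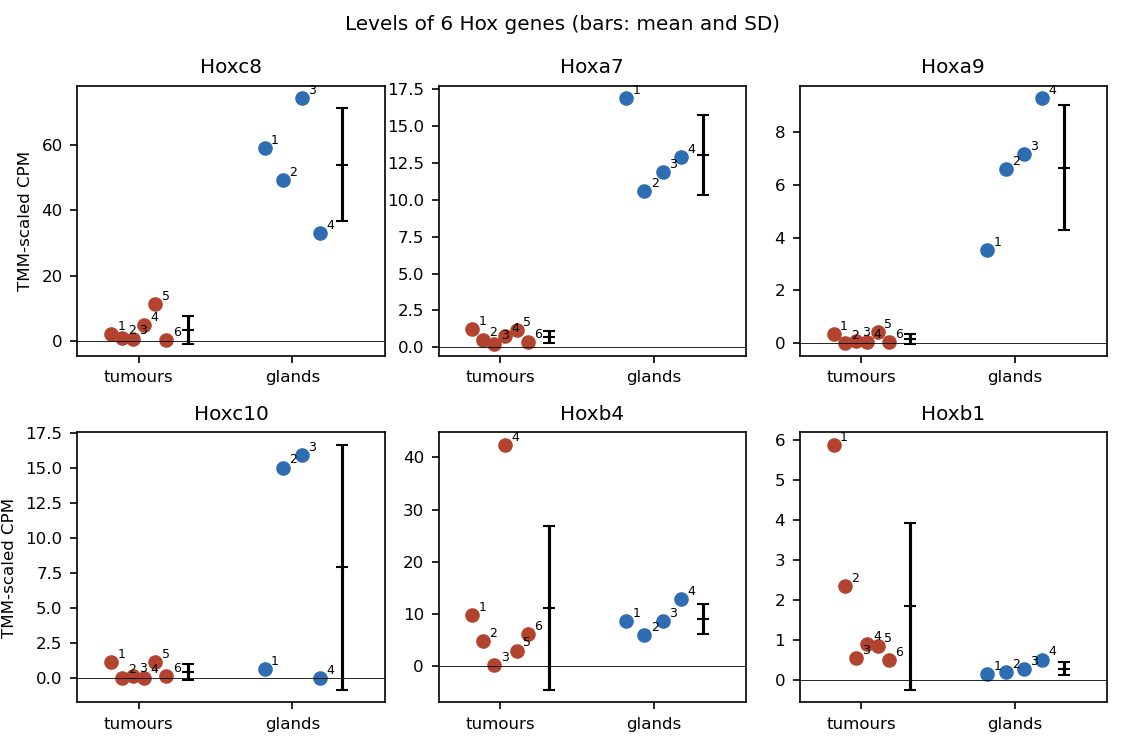
TMM-scaled CPM of 6 Hox genes in each tumour (red, n = 6) and gland (blue, n = 4), with points numbered by library and bars for mean and SD. Hoxc8, Hoxa7 and Hoxa9 separate the groups, Hoxc10 is high in glands 2 and 3, Hoxb4 reaches 42.4 CPM in tumour 4, and Hoxb1 is above every gland in 5 of 6 tumours.

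None of the anterior genes, and none of the genes of groups 1 to 4 in cluster B, passed the test. Hoxb4, known for its effect on blood stem cells, was at 0.247, 5.52 and 42.4 CPM (lowest, median, highest) in tumours, against 8.67, 6.03, 8.69 and 12.8 CPM in glands 1 to 4. The means were 11.1 ± 15.7 CPM in tumours and 9.04 ± 2.79 CPM in glands (SD, n = 6 and 4), and tumour 4 set the tumour mean. The log2 fold change of 0.29 ± 0.94 (adjusted p = 0.843, edgeR) was -0.90 without tumour 4. Hoxb2, a hindbrain segment gene, was at 0, 1.34 and 15.5 CPM in tumours, against 4.59, 1.98, 1.73 and 1.65 CPM in glands. Hoxb3 was at 0.0495, 0.992 and 6.85 CPM in tumours, against 3.17, 1.62, 1.17 and 1.21 CPM in glands. Tumour 4 was the highest library for both, and neither passed (0.48 ± 1.21, adjusted p = 0.799, and 0.052 ± 1.05, adjusted p = 0.977), with -1.21 and -1.07 without tumour 4. In GENCODE M21, 58.5% of the exon bases of Hoxb2 and 57.8% of those of Hoxb3 are shared with Hoxb3os on the opposite strand. Hoxb3os itself was at 0.223 to 18.1 CPM in tumours, highest in tumour 4, and at 4.18 to 6.76 CPM in glands. Whether reads were counted by strand is not stated in the labels or notes used here, so reads of these genes and of their antisense partner cannot be told apart. Hoxb4 has no such overlap in that annotation.

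Hoxb1, a group 1 gene of the hindbrain, was the tested member with the highest fold change. It was at 5.89, 2.36, 0.544, 0.901, 0.856 and 0.502 CPM in tumours 1 to 6, against 0.143, 0.187, 0.278 and 0.509 CPM in glands 1 to 4. Tumours 1 to 5 lay above every gland, and tumour 6 (18 counts) lay just under gland 4 (8 counts). The order of tumour 6 and gland 4 depends on the scaling, with a TMM factor of 0.580 in gland 4. The gland levels rest on 5 to 12 counts per library. The log2 fold change of 2.74 ± 0.87 missed the threshold (adjusted p = 0.0553, edgeR) and passed without tumour 3 or tumour 6, without both tumours rich in salivary transcripts, without these and gland 4, under total-count scaling and with DESeq2 (adjusted p over all alternatives 0.00492 to 0.154). Without tumour 1, the highest library after TMM scaling, the log2 fold change was 1.93. It was the only member that passed the filter through the tumours alone. Hoxa2 and Hoxa3, anterior genes of cluster A, did not pass either (log2 fold changes -0.96 and -1.99, adjusted p = 0.432 and 0.223).

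The 11 members that were not tested stayed near the limit of a few reads in most libraries. Hoxb8 was below all glands in 5 of 6 tumours, at 0 to 0.411 CPM in tumours and 0.191 to 1.08 CPM in glands. Hoxc13, which is known for its part in hair and nail formation, had 246 counts over the tumours and 1 over the glands, and 222 of the tumour counts came from tumour 2 (3.36 CPM). Hoxd11, a gene of the distal trunk and limbs, had 43 counts over the tumours, 32 of them in tumour 1 (2.19 CPM), and 0 in each gland, where 3 counts, the limit that a count of 0 allows, correspond to 0.0468 to 0.191 CPM. Such limits cover counting error only. Tumour 1 was also the highest library for Hoxd10 (0.548 CPM, 8 counts) and Hoxd12 (0.206 CPM, 3 counts). Its TMM factor of 0.422 raises its scaled levels. Hoxd10 had 8 of 34865913 counts in tumour 1 and 17 of 48353114 in gland 2, so its ranking depends on the scaling. The share of salivary transcripts in tumour 1 stood at 53.7%, and its part in these levels was not tested. The other untested members (Hoxa6, Hoxa13, Hoxb13, Hoxc11, Hoxd1 and Hoxd3) reached at most 0.548 CPM in any tumour and 0.342 CPM in any gland. Of the exon bases of Hoxd3, 66.7% are shared with other genes on the same strand, and counts there may be split.

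**Figure D3:**
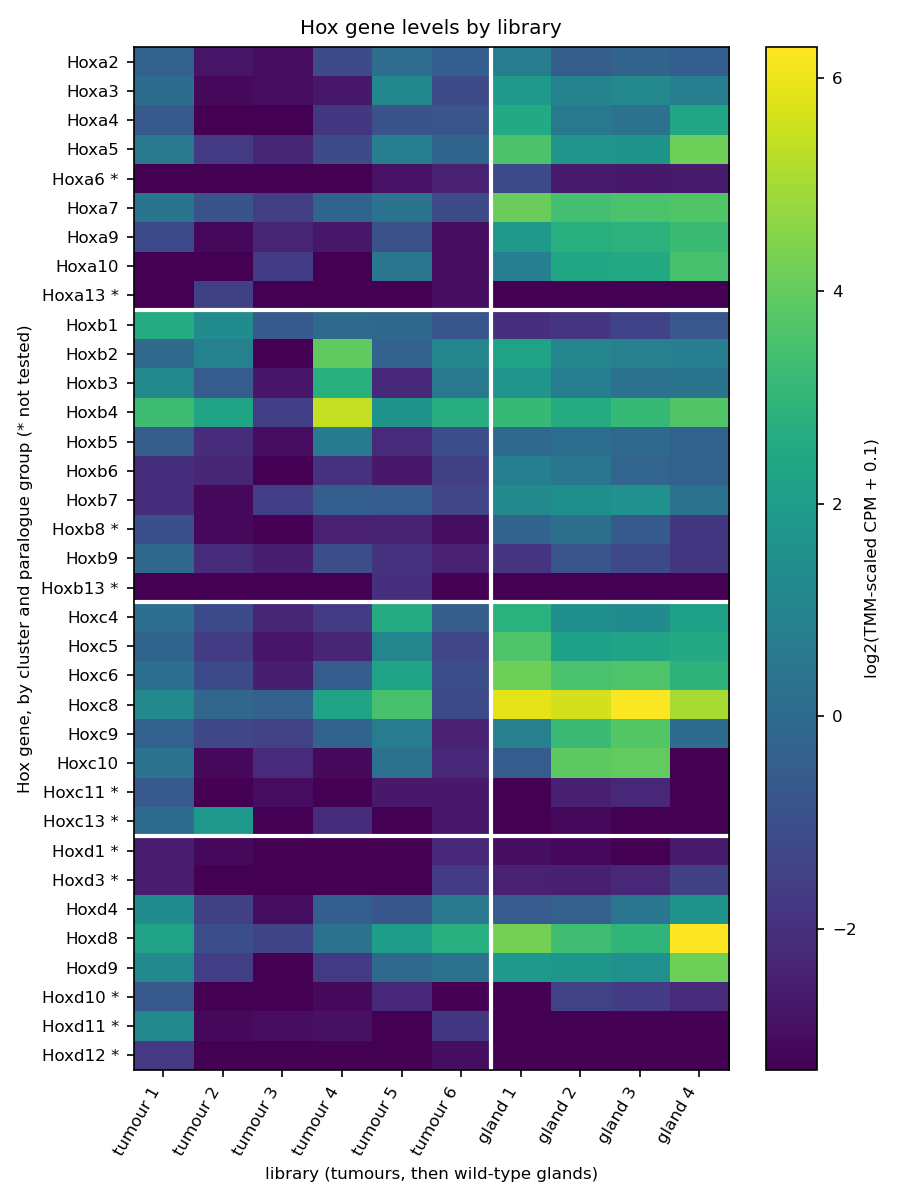
Levels of 35 Hox genes (rows, by cluster and paralogue group) in each library (columns, tumours then glands), as log2 of TMM-scaled CPM plus a pseudocount of 0.1. The bright band of clusters A and C in the glands is dark in most tumours, tumour 4 is bright for Hoxb2 to Hoxb4, and Hoxc10 is bright in glands 2 and 3.

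Under TMM scaling, the summed levels of clusters A and C separated tumours from glands, and those of cluster B did not. Cluster A summed to a median of 2.70 CPM (range 0.816 to 8.60) in tumours and to 46.0, 30, 32.0 and 59.3 CPM in glands 1 to 4, and cluster C to 5.98 CPM (1.31 to 26.5) in tumours and 95.5 CPM (51.6 to 123) in glands. Cluster D summed to 3.8 CPM (0.346 to 12.4) in tumours and 19.0 CPM (12.1 to 99.7) in glands, with tumour 1 at 12.4 CPM just above gland 3 at 12.1 CPM. The gap in cluster C and the small overlap in cluster D both depend on the TMM scaling. TMM factors were 0.422 in tumour 1, 1.41 in tumour 5, 1.31 in gland 3 and 0.580 in gland 4. Cluster B summed to 10.5 CPM (1.19 to 68.3) in tumours and 18.1 CPM (16.3 to 22.2) in glands, with 4 of 6 tumours below every gland and tumour 4 above every gland. The ratio of the mean sums, tumour over gland, was 0.0841 for A, 1.05 for B, 0.0911 for C and 0.137 for D. Single libraries moved 3 of these, to 0.524 for B without tumour 4, 0.0514 for C without tumour 5 and 0.307 for D without gland 4. Over the whole family the sums were 3.66 to 79.2 CPM in tumours and 153 to 230 CPM in glands. Tumour 3 was lowest in every cluster.

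**Figure D4:**
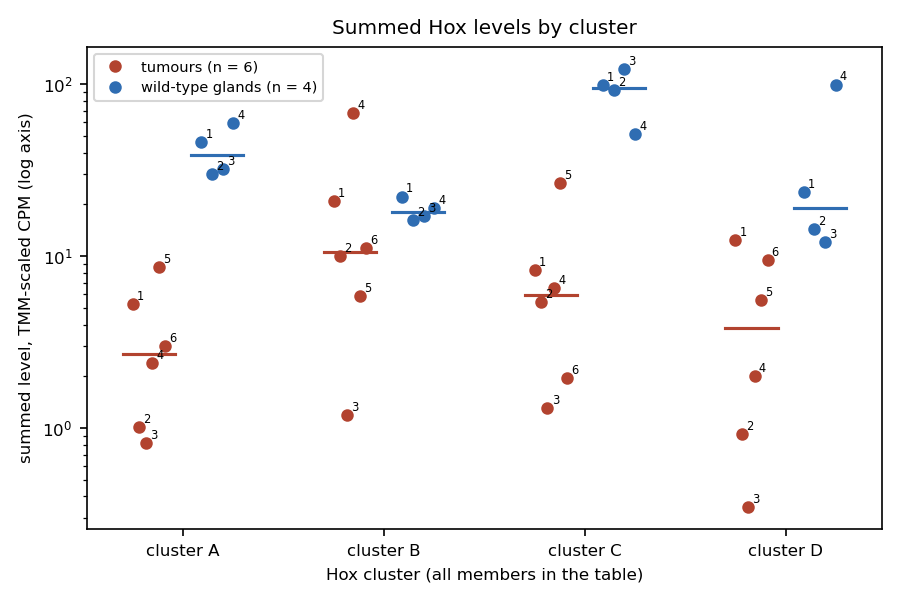
Summed TMM-scaled CPM of each Hox cluster (log y axis) in tumours (red, n = 6) and glands (blue, n = 4), with numbered points and a line at the median. At this scaling the groups do not overlap in clusters A and C, and tumour 1 lies just above gland 3 in cluster D (12.4 against 12.1 CPM). In cluster B tumours range from 1.19 to 68.3 CPM around glands of 16.3 to 22.2 CPM.

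Per kilobase of coding-gene exons, which allows levels of different genes to be compared, the leading gene differed between the groups. In tumours the highest mean levels were those of Hoxb4 (4.32 ± 6.10 CPM per kilobase), Hoxb2 (2.13 ± 3.64), Hoxc8 (1.77 ± 2.24), Hoxd8 (1.03 ± 0.938) and Hoxb1 (0.883 ± 1.01, SD, n = 6). In glands they were those of Hoxc8 (28.9 ± 9.27 CPM per kilobase), Hoxd8 (10.5 ± 12.2), Hoxc6 (7.78 ± 2.70), Hoxa5 (4.83 ± 3.92) and Hoxa7 (4.68 ± 0.979, SD, n = 4). Hoxb2 was in second place through tumour 4: without it, the mean of Hoxb2 in tumours was 0.655 CPM per kilobase, below those of Hoxb4 (1.88), Hoxc8 (1.63), Hoxd8 (1.15) and Hoxb1 (0.974). The SDs of the 5 tumour genes overlap, and in the glands only Hoxc8 stands apart from the genes after Hoxd8. Hoxb4 led in tumours 1, 2, 4 and 6 and Hoxc8 in tumours 3 and 5, against Hoxc8 in glands 1 to 3 and Hoxd8 in gland 4. With median transcript lengths in place of exon unions, Hoxd8 led in tumour 6 and the other leaders were the same.

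Anterior genes held a larger share of the Hox signal in every tumour than in any gland. Groups 1 to 3 made up 11.2% to 34.8% of the summed Hox level per kilobase in tumours (mean 23.9% ± 8.47) and 2.90% to 6.91% in glands (4.31% ± 1.82), with no overlap. Since reads of Hoxb2 and Hoxb3 cannot be told apart from those of Hoxb3os, the share was also taken without both genes. It was then 3.9% to 19.4% in tumours and 1.57% to 3.03% in glands, lowest among the tumours in tumour 4. Single genes made up much of the anterior share in some tumours. Of the summed Hox level, Hoxb1 alone made up 13.3%, 14.8% and 15.3% in tumours 1 to 3, 1.23% to 2.19% in tumours 4 to 6 and at most 0.248% in glands. Hoxb2 made up 27.2% in tumour 4. Tumour 3 had 148 Hox counts in all. Groups 4 to 8 made up 44.8% to 77.7% in tumours and 72.0% to 88.2% in glands, and groups 9 to 13 made up 1.95% to 25.2% in tumours and 4.85% to 23.8% in glands. Cluster B made up 12.6% to 84.9% in tumours and 8.46% to 11.5% in glands, again with no overlap, and group 8 made up 7.58% to 34.3% in tumours and 41.7% to 48.1% in glands. By paralogue group, the ratio of the mean summed levels per kilobase, tumour over gland, was 2.77 for group 1, 1.18 for group 2, 0.520 for group 3, 0.693 for group 4, 0.109 for group 5, 0.0984 for group 6, 0.0789 for group 7, 0.0717 for group 8, 0.0970 for group 9 and 0.0592 for group 10. Without tumour 4 it was 0.457 for group 2, which turns its direction, and 0.393 for group 4. Without tumour 1 it was 1.73 for group 1, and without tumour 5 it was 0.0463 for group 6 and 0.0364 for group 10. These shares and ratios are sums over chosen members and are given without a test. Since shares add up to the whole, a higher share does not mean a higher level. Groups 1 to 3 summed to a median of 2.49 CPM per kilobase (0.341 to 12.2) in tumours and 2.96 (2.85 to 6.28) in glands.

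**Figure D5:**
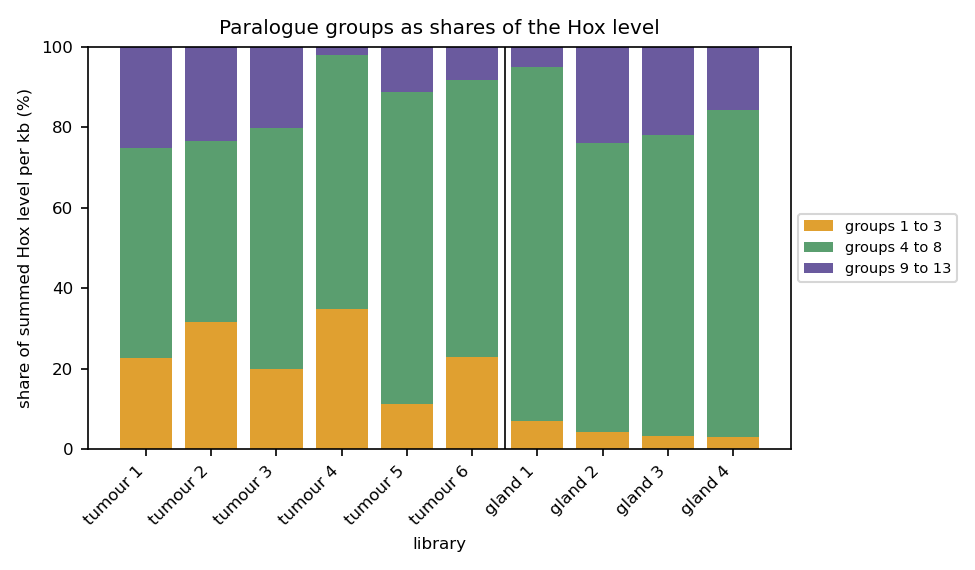
Share of the summed Hox level per kilobase (y axis, percent) held by groups 1 to 3, 4 to 8 and 9 to 13 in each library (x axis, tumours then glands). The share of groups 1 to 3 is at least 11.2% in each tumour and at most 6.91% in each gland.

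The tumours differed among themselves by more than the glands did, relative to the mean, in 22 of 25 tested members, and in 69.8% of all genes tested. Low counts add counting error to the spread of the rarer members. Hoxc8 varied by 126% (SD over mean) in tumours and 32.1% in glands, Hoxb4 by 141% in tumours and 30.8% in glands, and Hoxa7 by 59.4% in tumours and 20.9% in glands. Among the tumours, tumour 4 was highest for Hoxb2, Hoxb3, Hoxb4 and Hoxb5, and by little for Hoxb7 (0.641 CPM, against 0.595 CPM in tumour 5). Tumour 5 was highest for Hoxc4, Hoxc5, Hoxc6, Hoxc8, Hoxc9 and Hoxc10. Tumour 5 was also the highest tumour for Hoxa2, Hoxa3, Hoxa5, Hoxa9 and Hoxa10, and for the sum of cluster A (8.60 CPM). Hoxb2 to Hoxb5 and the members named in cluster C are runs of neighbouring genes. Hoxb1 was highest in tumour 1, and Hoxb6, which lies between Hoxb5 and Hoxb7, in tumour 6. Tumour 6 had summed fibroblast markers of 6740 CPM, within the range of the glands (3710 to 8210 CPM), and the other tumours had 251 to 2000 CPM. The Hoxc8 level of tumour 6, at 0.335 CPM, was the lowest of all 10 libraries, and its Hoxd8 level, at 6.47 CPM, the highest of the tumours. The part of fibroblasts in these levels was not tested. Tumour 5 had the highest T and B cell marker sums of the tumours (90.1 and 149 CPM), whose part in its Hoxa and Hoxc levels was not tested.

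For the lists that follow, the shares to set beside each count are those of all genes tested, 6.89% called higher and 8.19% called lower. Of 10 noncoding transcripts of the clusters, 5 were tested and none passed in edgeR, with 2 lower and none higher at an unadjusted p below 0.05. Hotairm1, a noncoding RNA at the anterior end of cluster A, was at 0 to 0.919 CPM in tumours and 1.08 to 4.59 CPM in glands (log2 fold change -2.44 ± 1.01, adjusted p = 0.119), and Hoxd3os1 at 0.124 to 2.88 CPM in tumours and 2.47 to 11.1 CPM in glands (-2.37 ± 0.79, adjusted p = 0.0635). Of 20 genes that neighbour the clusters, 16 were tested, 1 rose and 1 fell (median 0.25), close to those shares. Hibadh, a mitochondrial enzyme gene beside cluster A, fell to 62.1 ± 24.3 CPM in tumours, against 201 ± 57.8 CPM in glands (-1.70 ± 0.32, adjusted p = 0.00917, edgeR). Gpr84, which encodes a receptor for fatty acids and lies near cluster C, was at 0.104 to 0.585 CPM in tumours and at 0 counts in each gland (edgeR adjusted p = 0.00979). Without gland counts, Gpr84 could pass the filter on low counts only through the tumours, so it had to be higher there to be tested. It was tested in 6 of the 10 fits that left out 1 library.

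Of 8 tested genes for Hox cofactors, which bind DNA beside Hox proteins, Pbx3 rose and none fell (median 0.64). Pbx3 was at 11.4 ± 5.77 CPM in tumours and 4.58 ± 0.799 CPM in glands (log2 fold change 1.32 ± 0.40, adjusted p = 0.0482, edgeR), a call that held in 1 of the 10 fits that left out 1 library. Meis1 and Meis2 did not pass (adjusted p = 0.248 and 0.431), and were at 81.9 and 129 CPM in tumour 1, against at most 15.2 and 22.5 CPM in the other tumours and 7.12 and 10.1 CPM in the glands. Of 12 Polycomb genes 1 rose and 1 fell (median 0.27), again close to the shares of all genes. Ezh2, the histone H3 methyltransferase of dividing cells, was at 41.7 ± 21.7 CPM in tumours and 11.6 ± 2.91 CPM in glands (1.85 ± 0.43, adjusted p = 0.0190). Its relative Ezh1 was at 16.8 ± 1.27 CPM in tumours and 30.5 ± 2.11 CPM in glands (-0.86 ± 0.20, adjusted p = 0.0194). The Ezh2 call was lost without gland 1, and the Ezh1 call without gland 1 or 2. None of 9 trithorax genes passed in edgeR (median 0.23), with 2 higher and none lower at an unadjusted p below 0.05, against 17.3% and 16.1% of all genes.

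Retinoic acid switches on anterior Hox genes in the embryo, and of 15 genes of its synthesis, breakdown and response 3 rose and 2 fell (median -0.14), against 6.89% and 8.19% of all genes. The synthesis enzyme gene Aldh1a1 fell to 3.90 ± 3.93 CPM in tumours, against 81.2 ± 19.5 CPM in glands (log2 fold change -4.39 ± 0.77, adjusted p = 0.00749, edgeR, and -5.09 without tumour 6). Crabp2, which carries retinoic acid to its receptors, was at 23.2 ± 16.4 CPM in tumours and 1.57 ± 0.907 CPM in glands (3.88 ± 0.79, adjusted p = 0.0119), and the synthesis gene Rdh10 at 45.5 ± 29.7 CPM in tumours and 10.6 ± 3.10 CPM in glands (2.10 ± 0.54, adjusted p = 0.0279). The synthesis genes thus moved both ways. Cyp26a1, which breaks retinoic acid down, was at 0.104 to 5.66 CPM in tumours and at 0 counts in each gland (adjusted p = 0.0162). Like Gpr84, Cyp26a1 could pass the filter on low counts only through the tumours, so it had to be higher there to be tested. It was tested in 6 of the 10 fits that left out 1 library. The receptor gene Rxra was at 35.2 ± 14.7 CPM in tumours and 97.2 ± 26.7 CPM in glands (-1.47 ± 0.35, adjusted p = 0.0219). The Rxra call was lost without gland 1, and the Rdh10 call without any 1 of the glands.

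Of 8 homeobox, T-box and related regulators with roles in the mammary gland, none rose and 3 fell (median -1.91), against 6.89% and 8.19% of all genes. Msx2, a homeobox gene of mammary bud formation, was at 0.308 ± 0.165 CPM in tumours and 3.71 ± 0.222 CPM in glands (log2 fold change -3.58 ± 0.49, adjusted p = 0.00323, edgeR), and its call held in all 10 fits that left out 1 library. Tbx15, a gene of mesenchyme and fat, was at 8.47 ± 4.94 CPM in tumours and 55.2 ± 47.2 CPM in glands (-2.70 ± 0.62, edgeR adjusted p = 0.0190, and -2.01 without gland 4), a call lost without gland 1. Satb1, a chromatin organiser known in lymphocytes, was at 12.8 ± 5.03 CPM in tumours and 55.4 ± 34.1 CPM in glands (-2.12 ± 0.49, adjusted p = 0.0188), a call lost without gland 2, 1 of the glands with high T and B cell markers. Tbx3, needed for mammary bud formation, did not pass (-1.70 ± 0.82, adjusted p = 0.169). None of 5 caudal and ParaHox genes in the table, the nearest relatives of the Hox genes, had enough counts to be tested, and Cdx2 was at 0.685 CPM in tumour 1 and at 0 counts in each gland.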

How the data were processed

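RNA-seq counts were analysed for 10 libraries (6 tumours, 4 glands) of a series of 13 samples, and 3 samples of purified epithelium are not analysed here. The table that the authors deposited holds whole-number counts per gene symbol. Per the labels' protocols, polyA RNA from TRIzol extracts was made into libraries with a NEBNext Ultra kit. Salmon 1.2.0, DESeq and mm9 are named, with no role, per the submitters' processing notes. How transcripts were summed to genes, and strand, are not given in the sources used here, and rounded Salmon estimates would split reads of similar genes by its model. No column of another sample was in the table.

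Genes were filtered with filterByExpr (0.269 CPM in at least 4 libraries, 15 counts in all), scaled by TMM and tested with edgeR 4.0.16 in R 4.3.3 (quasi-likelihood, no covariate, Benjamini-Hochberg over all genes, threshold 0.05). TMM factors were 0.422 in tumour 1, 0.580 in gland 4 and 0.889 to 1.41 elsewhere. Each SE was taken as the size of the fold change (log2) over the root of its F statistic. The biological coefficient of variation was 0.707. No library was a copy of another (45 pairs, lowest chi-square per degree of freedom 37.8). On simulated data of this design (19614 genes), edgeR found 0 of the 67 genes set to a 2-fold change, 7 of the 64 set to 4-fold and 36 of the 66 set to 8-fold, and called 1 unchanged gene, so genes short of the threshold may still differ. DESeq2 found 5, 27 and 56, and called 63 unchanged genes.

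Lengths are unions of coding-transcript exons in GENCODE M21. Overlaps are from the same annotation, in which 8 members share exon bases with an opposite-strand gene and 7 with a same-strand gene. The alternatives were RLE and upper-quartile factors, DESeq2 1.42.0, limma-voom (limma 3.58.1), no filter, 1 CPM in 4 libraries, a 2-fold threshold, age as a covariate, leaving out each library, and leaving out tumours 1 and 6 or these and gland 4. Total-count scaling, the ratios and means of sums without single libraries, and the anterior share without Hoxb2 and Hoxb3 were added after seeing the data. The members, lists and alternatives were chosen with earlier results of these data known. Some genes counted in the totals are not reported here one by one. Any other Hox gene could be named, with full values for called members and the most abundant member of each cluster. From each list up to 3 called members in each direction were named by smallest adjusted p, and Fbxw7 as the targeted gene. Other list members named in the text (Hotairm1, Hoxd3os1, Hoxb3os, Meis1, Meis2, Tbx3 and Cdx2) were chosen after their values were seen. Of 11 marker lists, 2 called basal, 5 squamous, 4 salivary and 1 macrophage marker rose, of 9, 10, 11 and 9 tested, while 8 of 12 skeletal muscle markers, 1 of 10 T and NK cell markers and 0 of 8 B cell markers fell (5 of the B cell markers were lower in edgeR at p below 0.05 without adjustment).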

Additional observations from a re-analysis of the deposited data

Results flagged for a closer look

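Among 50 combinations of a tested Hox gene and a group of libraries, 12 had 1 library whose gap to the nearest other took up most of the group's range (Dixon's criterion at 95%), 8 in tumours and 4 in glands. The criterion flags about 1 in 20 groups by chance only where values are normally distributed, and these low levels were not checked for that. All 12 flags were high values, as a skewed spread would also give. The share flagged over all genes was not taken, so 12 of 50 cannot be set against chance. Neighbouring genes share libraries and are not independent. In tumour 4, Hoxb2 was at 15.5 CPM, Hoxb3 at 6.85 CPM and Hoxb4 at 42.4 CPM, against at most 1.95, 2.19 and 9.80 CPM in the other tumours. In tumour 5, Hoxa10 was at 1.28 CPM, Hoxc4 at 5.86 CPM, Hoxc5 at 2.05 CPM and Hoxc6 at 4.71 CPM, against at most 0.223, 1.03, 0.754 and 1.03 CPM in the other tumours. In tumour 1, Hoxb1 was at 5.89 CPM, against at most 2.36 CPM in the other tumours. In gland 1, Hoxa2 was at 1.54 CPM and Hoxb2 at 4.59 CPM, against at most 0.724 and 1.98 CPM in the other glands. In gland 4, Hoxd8 was at 78.3 CPM and Hoxd9 at 17.9 CPM, against at most 19.3 and 3.60 CPM in the other glands.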

How the results depend on the processing

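Of the 11 Hox genes called lower, Hoxa7, Hoxa9 and Hoxc8 were called in all 21 alternatives. Over all fits of the 11, 175 of 229 kept the call, 54 lost it and 0 changed sign, and without 1 library 78 of 110 kept it. The number of Hox genes called lower was 11 with RLE, 10 with upper-quartile factors, 13 with DESeq2, 14 with limma-voom, 10 without a filter, 10 with the stricter filter, 4 with the 2-fold threshold, 8 with age, 10 with total-count scaling, 9 without tumours 1 and 6, 8 without these and gland 4, and 4 to 12 without 1 library, while the share of all genes called lower ran between 2.29% (2-fold threshold) and 13.5% (without tumours 1 and 6 and gland 4). With the 2-fold threshold these were Hoxa5, Hoxa7, Hoxa9 and Hoxc8. The number called higher was 0, and it was 1 (Hoxb1) with DESeq2, total-count scaling, without tumours 1 and 6 and without these and gland 4, and 0 to 1 without 1 library. All genes called numbered 3030, and 5252 with DESeq2, 883 with the 2-fold threshold, 1899 with age, 4640 without tumours 1 and 6 and gland 4, and 1053 to 3521 without 1 library. The median log2 fold change over all genes that a fit tested was 0.169 in the main fit and 0.324 with upper-quartile factors, which gave 1809 higher and 1313 lower. Without tumours 1 and 6 and gland 4 this median was 0.0988.

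Signs turned only in uncalled genes. Hoxb2 was at -1.33 with limma-voom (-1.21 to 0.95 without 1 library), and Hoxb3 at -1.42 with limma-voom, -0.23 with age and -0.14 without tumours 1 and 6 and gland 4 (-1.07 to 0.47). Hoxb4 was at -0.79 with limma-voom (-0.90 to 0.56), and Hoxb9 at 0.043 with upper-quartile factors and 0.12 with age (-0.44 to 0.19). Fbxw7 was at 0.013 with upper-quartile factors, 0.33 with limma-voom, 0.26 with total-count scaling and 0.72 without tumours 1 and 6 and gland 4 (-0.37 to 0.80). The cluster B median ran from -1.21 to 0.16 without 1 library. The causes were not tested. No paired analysis was possible because no identifier in the labels is common to a tumour and a gland. Counts of a few reads per library limit the untested members.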
